A study of Daphnia magna with 24 samples.

Results

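In Daphnia magna kept in 4 field waters, 2 features, P3BA12 and P7BA11, met a rule for a small positive log ratio in every water, out of 7680 on the array and 3661 with the 12 exposure values that the rule needs. They were selected on the measured values themselves: each of the 12 exposures had to have a value above 0, each of the 4 site means had to be at least 0.1, and the tailings mean had to be below 0.4. Their levels against control are therefore a description, and the calls of the fit over all features, given further on, are no support for them. P3BA12 averaged 0.20 and P7BA11 0.28 over the 4 sites, which is 1.15-fold and 1.21-fold if the logarithm is to base 2. That fit called neither feature in any water, where it called 0% to 6.12% of all features higher. With the exposure number as a block it called P3BA12 in tailings and Little Grizzly Creek water, where 8.36% and 3.26% of features were called higher. It called P7BA11 in portal water, where 7.13% were.

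Daphnia magna is a freshwater crustacean and a standard animal in water quality testing, and copper, the metal of this mine, is toxic to it. Adult females 14 to 16 days old, genetically homogeneous and pooled by 10 to 15 per exposure, spent 24 h at 23.5 °C in water from below the tailings, from Little Grizzly Creek, from below the mine portal or from upstream of the mine at Walker Mine. The control was unexposed laboratory animals in COMBO, a defined culture medium. RNA came from whole pooled animals, so a change in one tissue and a change in the number of its cells cannot be told apart, and no copper concentration is given for any site.

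Each water had 3 exposures, and each exposure had 2 arrays on which the dyes were exchanged, 24 arrays in all. A two-colour array measures exposed and control cDNA on the same spot, so each value is a log ratio and carries no level of its own. Exchanging the dyes lets a dye effect cancel in the mean of both arrays, which is the exposure value used here. Arrays held 5106 to 7548 values, their medians lay between -0.0265 and 0.0177, and their SD across features between 0.297 and 1.05. The ratios are read as exposed over control. This direction is likely from the order of channels in the labels but is not stated, and with the opposite direction both features would have small negative values throughout.

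None of the 7680 identifiers matched a gene in the RefSeq table used here, so both features are known by identifier only, and no gene, pathway or genome position is given for them. For the same reason no list of metal-handling, stress or reproduction genes could be counted.

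P3BA12 had exposure values of 0.32, 0.049 and 0.26 in tailings water. Its values in Little Grizzly Creek water were 0.31, 0.15 and 0.31. In portal water they were 0.26, 0.087 and 0.10, and in upstream water 0.30, 0.11 and 0.14. All 12 were thus positive, the highest at 0.32, and the range of each water overlapped those of the other waters in all 6 pairs. The site means were 0.26 ± 0.090 in Little Grizzly Creek, 0.21 ± 0.14 in tailings, 0.18 ± 0.11 in upstream and 0.15 ± 0.095 in portal water (SD, n = 3 each). The distance between the highest and the lowest of these means, 0.108, was smaller than the SD among tailings exposures.

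P7BA11 had 0.37, 0.047 and 0.48 in tailings water. In Little Grizzly Creek water its values were 0.34, 0.15 and 0.30. Portal water gave 0.77, 0.19 and 0.19, and upstream water 0.22, 0.043 and 0.23. The first portal exposure stood above the other 11, and again no pair of waters was free of overlap. The means were 0.38 ± 0.33 in portal, 0.30 ± 0.23 in tailings, 0.27 ± 0.10 in Little Grizzly Creek and 0.17 ± 0.11 in upstream water (SD, n = 3 each). Portal water was thus highest for P7BA11 and lowest for P3BA12, but no neighbours in either order differed beyond their spread. The order for P7BA11 rested on 1 exposure: without portal exposure 1 its portal mean was 0.19, below tailings and Little Grizzly Creek water. After quantile normalisation its mean was 0.35 in Little Grizzly Creek and 0.32 in portal water.

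**Figure D1:**
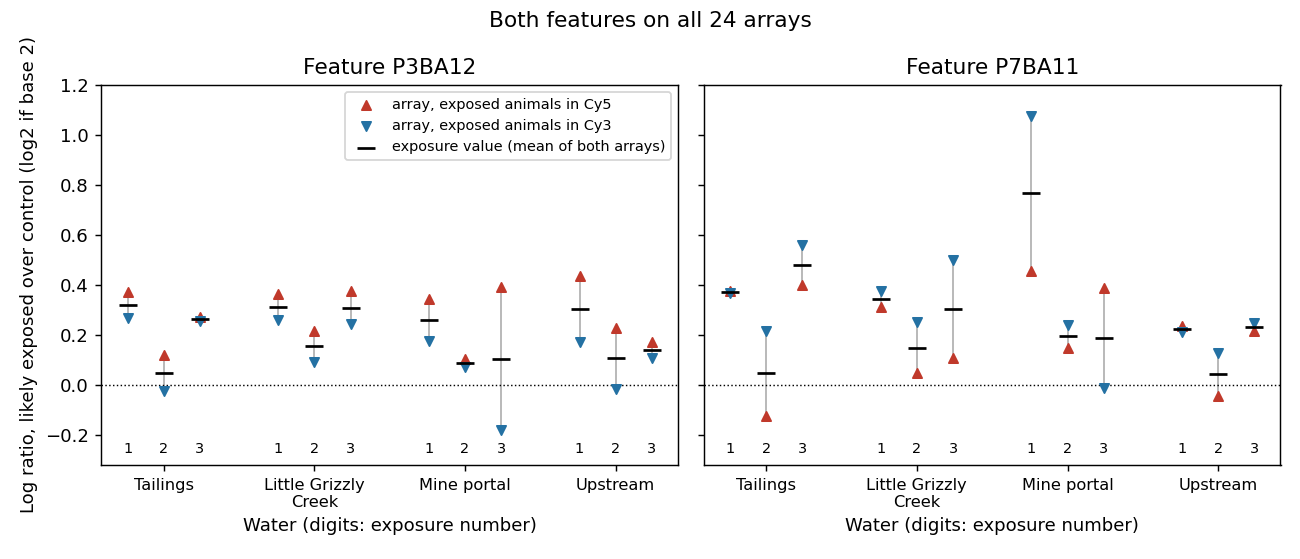
Log ratio of both features on all 24 arrays, by water and exposure number. Red triangles are arrays with the exposed animals in Cy5, blue triangles arrays with them in Cy3, and the black bar is their mean, the exposure value. All 24 bars lie above 0, while 3 arrays of each feature lie below 0.

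The single arrays were less uniform than the exposure values. P3BA12 was above 0 on 21 of 24 arrays, with a lowest value of -0.18 and a highest of 0.43. P7BA11 was also above 0 on 21 of 24 arrays, from -0.12 to 1.08. For both features the negative arrays came from the same 3 exposures, tailings 2, portal 3 and upstream 2. P3BA12 read -0.023, -0.18 and -0.015 there, each time on the array with the exposed animals in Cy3. P7BA11 read -0.12 in tailings exposure 2 and -0.044 in upstream exposure 2, both with the exposed animals in Cy5, and -0.012 in portal exposure 3 with them in Cy3. In these 3 exposures the positive value was smaller than the dye-swap error, which is the distance of either array from their mean. This holds whenever either array is negative and their mean is positive, so it adds nothing to the signs given above.

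The second exposure was the lowest of a site at all 4 sites for P3BA12 and at 3 sites for P7BA11, whose portal exposure 3 (0.188) was just below portal exposure 2 (0.194). This was not particular to them. Among the 3661 features with all 12 values, the share above 0 was also lowest in the second exposure of every water. It was 45.4% in tailings (51.9% and 56.2% in exposures 1 and 3) and 48.2% in Little Grizzly Creek water (54.4% and 52.3%). In portal water it was 45.6% (52.2% and 45.7%), and in upstream water 43.2% (50.8% and 47.3%). The spread across all features was also small in the second exposure of 2 waters. Its SD was 0.3 in portal exposure 2, against 0.605 and 0.792 in portal exposures 1 and 3, and 0.282 in upstream exposure 2, against 0.544 and 0.577 in upstream exposures 1 and 3. In tailings water the second exposure had an SD of 0.517, between 0.485 and 0.781, and in Little Grizzly Creek water 0.523, between 0.502 and 0.725. Scaling all arrays to one spread kept both features under the rule, with site means of 0.12 to 0.27 for P3BA12 and 0.16 to 0.30 for P7BA11.

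Set against other features, both had a high mean over the 4 sites, which the rule's minimum of 0.1 favours. Among the 3661 features with all 12 exposure values, 141 had a higher mean over the 4 sites than P7BA11 and 261 a higher one than P3BA12. The SD among exposures of a site, pooled over sites, was 0.110 for P3BA12 and 0.214 for P7BA11, where the median feature had 0.176. Within single exposures P3BA12 was above 63.5% to 93.0% of these features, and P7BA11 above 63.3% to 97.9%. The difference between the highest and lowest site mean was 0.108 for P3BA12 and 0.217 for P7BA11, below the median feature's 0.311. The rule admits only features with no site mean under 0.1 and a bounded tailings mean, which limits that difference.

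Few features reached the first condition. Of the 3661, only 18 (0.492%) were above 0 in all 12 exposures, 13 of these also had 4 site means of at least 0.1, and 11 of the 13 were left out because their tailings mean was 0.4 or more. With the sign turned, the same steps gave 56 features below 0 throughout, 39 and finally 8. Under the mirrored rule small negative values at all sites were thus found for 8 features, against 2 for small positive ones.

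**Figure D2:**
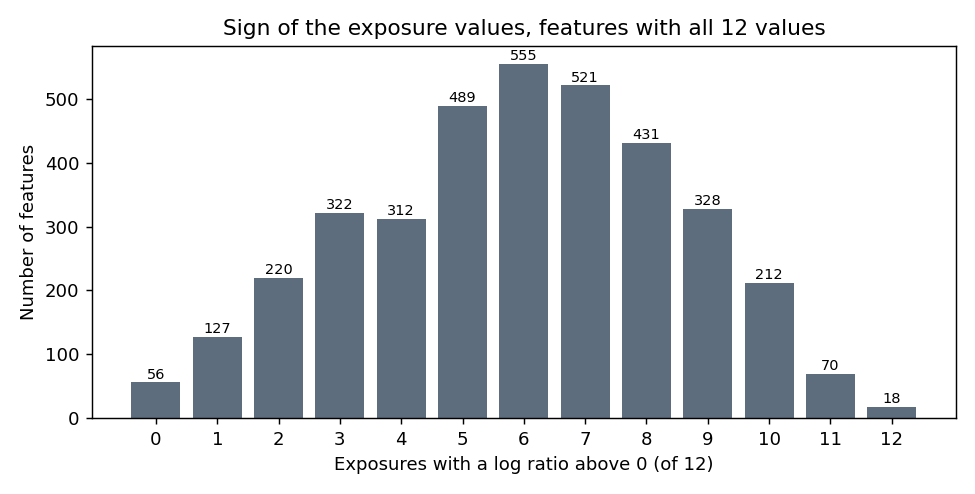
Number of features (vertical axis) by how many of the 12 exposure values were above 0 (horizontal axis), for the 3661 features with all 12 values. The right end holds 18 features and the left end 56, and P3BA12 and P7BA11 are among the 18.

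The tailings means of P3BA12 and P7BA11 were 0.21 ± 0.14 and 0.30 ± 0.23 (SD, n = 3 each), so that of P7BA11 lay less than its SD from the limit, while the nearest feature that failed only on this limit had 0.534. The lowest site mean was 0.150 for P3BA12, in portal water, and 0.166 for P7BA11, in upstream water. Just outside the minimum was a feature with a lowest site mean of 0.0949, also in portal water. Of the other 16 features above 0 in all exposures, those left out by the tailings limit had tailings means from 0.534 to 1.38.

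**Figure D3:**
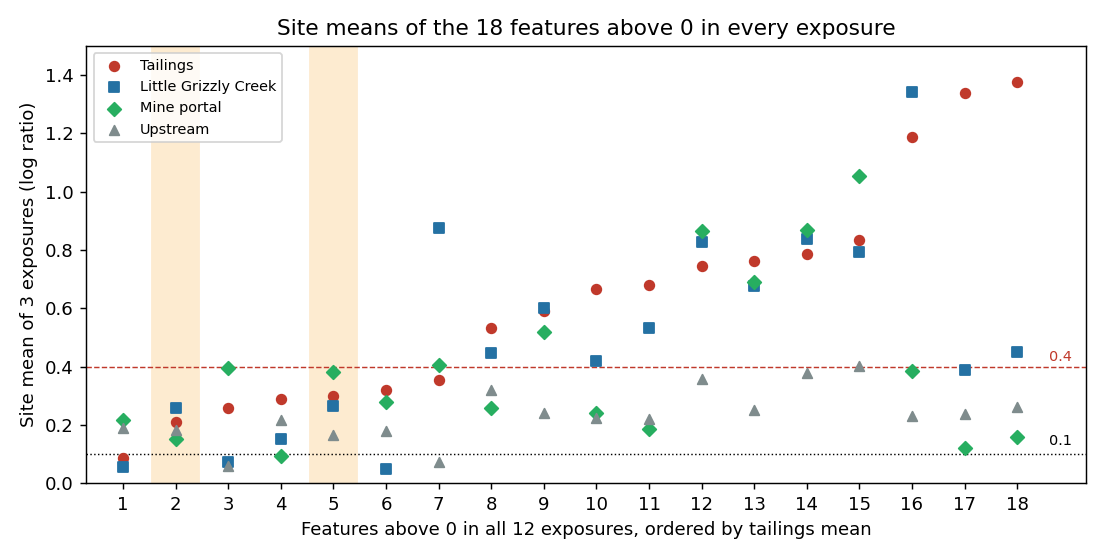
Site means (log ratio, vertical axis) of the 18 features above 0 in all 12 exposures, ordered from left to right by their tailings mean; each symbol is 1 water. Shaded columns are P3BA12 (position 2) and P7BA11 (position 5), and dotted and dashed lines mark 0.1 and the tailings limit of 0.4; from position 8 on, tailings means run from 0.534 to 1.38.

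Membership rested on single exposures. Without portal exposure 1 the portal mean of P3BA12 was 0.0958, under the minimum, and P7BA11 alone was left. Without tailings exposure 2 the tailings mean of P7BA11 was 0.426, over the limit, and 3 features qualified, P3BA12 among them. Leaving out any other single exposure kept both, with 2 to 6 features in all. Requiring all 24 arrays above 0 left 0 features, and so did a site minimum of 0.2. Turning the sign of the second upstream exposure removed both by construction.

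The limma fit over 6504 features, in which each site mean was tested against 0, called 0 of the 2 features in each water at an adjusted p under 0.05. Among all features, 6.12% were called higher in tailings water, 2.17% in Little Grizzly Creek water, 0% in portal water and 0% in upstream water. At an unadjusted p under 0.05 both features passed in tailings water, where 13.1% of all features did so as higher. Only P3BA12 did in Little Grizzly Creek water (5.63% of all features), only P7BA11 in portal water (11.1%), and only P3BA12 in upstream water (7.83%). Since the rule used these same ratios, nothing is read from these counts.

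With the exposure number as a block, limma called P3BA12 in tailings water (8.36% of features called higher) and in Little Grizzly Creek water (3.26%). P7BA11 was called in portal water (7.13%). Neither was called in upstream water (2.79%), where 1 of the 2 passed at an unadjusted p under 0.05 (9.83% of features as higher). What exposures of one number had in common no longer counted as error in this fit, so its error covers only part of the variation among the 3 exposures. The rule had chosen both features on these same means, and nothing is read from the blocked calls either.

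The difference between the arrays of a dye pair was not used by the rule and could be tested. The half-difference, from the value with the exposed animals in Cy5 minus that with them in Cy3, averaged 0.082 for P3BA12 (SE 0.0261) and was positive in 12 of 12 exposures. It missed the threshold, with an adjusted p of 0.0886 by limma. P7BA11 averaged -0.069 (SE 0.0396), with 9 of 12 exposures negative and an adjusted p of 0.263. Over all features 3.84% passed in either direction (28.4% at an unadjusted p under 0.05, P3BA12 among them), and the median half-difference was 0.0171.

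**Figure D4:**
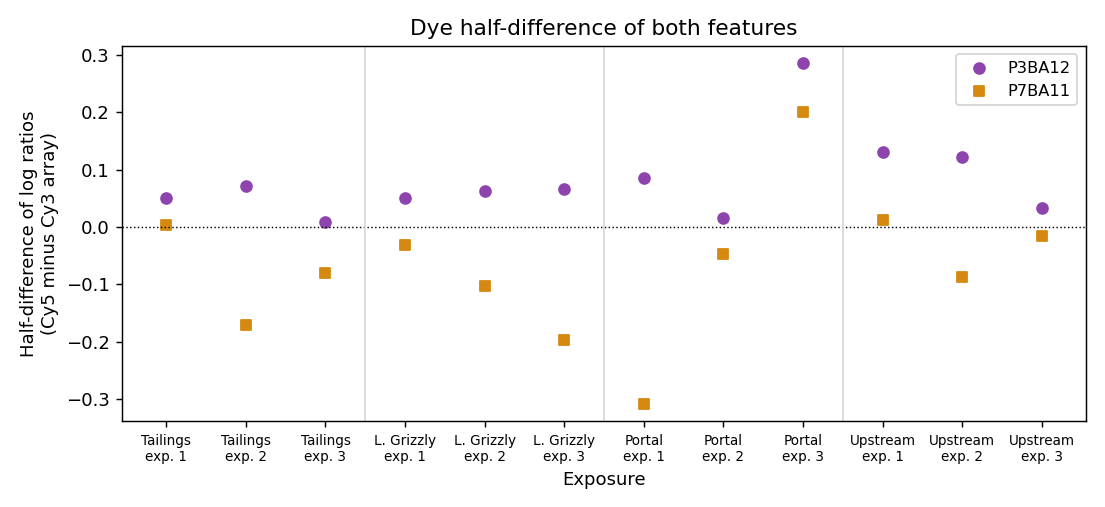
Half-difference between the dye-swap arrays (vertical axis, log ratio) of P3BA12 (circles) and P7BA11 (squares) in each exposure (horizontal axis). P3BA12 is above 0 in all 12 exposures; P7BA11 is below 0 in 9 and lowest in portal exposure 1, at -0.31.

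The dye pair thus gave P3BA12 a mean of 0.283 over the 12 arrays with exposed animals in Cy5 and of 0.119 over the 12 with them in Cy3. On the Cy5 arrays all 12 values were positive, from 0.10 to 0.43. On the Cy3 arrays 9 of 12 were positive, from -0.18 to 0.27, and the portal mean was 0.021. P7BA11 leaned the other way, with 0.210 on Cy5 arrays (10 of 12 positive) and 0.347 on Cy3 arrays (11 of 12 positive). With the exposure number as a block, the half-difference of P3BA12 passed (adjusted p = 0.0369 by limma), in a fit where 31.2% of features did, and that of P7BA11 did not (adjusted p = 0.223). Without portal exposure 2 that of P3BA12 passed too (adjusted p = 0.0222 by limma), in a fit that called 1216 of 4356 features (27.9%), against 250 of 6504 with all exposures.

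The rule was then applied to arrays of one dye orientation and its choice was read on the other, which uses the same RNA and is a technical repeat. On the Cy5 arrays it chose 14 features, P3BA12 among them, and on the Cy3 arrays 20, neither P3BA12 nor P7BA11 among them. No feature was chosen on both. Of the 10 Cy5 choices with all 12 values on the Cy3 arrays, 2 had 4 positive site means there (20%), against 14.0% of 4842 features. Of the 16 Cy3 choices with all values on the Cy5 arrays, 2 had them (12.5%), against 18.5% of 4269 features. The 4842 and 4269 features needed all values only on the arrays read, while the choices needed them in both orientations. Their median mean log ratio on the arrays not used was -0.048 and -0.029.

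Choosing without all exposures of one number, and reading the 4 exposures of that number, was also done. The features set beside each list needed only the 4 values read, while the lists also needed all values of the other numbers. Without number 1, 15 features qualified, and of 14 with values 1 was positive in all 4 exposures left out (7.14%), against 17.6% of 6483 features. Without number 2, 18 qualified, and 2 of 16 were positive in all 4 (12.5%, against 8.48% of 6359). Without number 3, 16 qualified, and 4 of 11 were (36.4%, against 14.8% of 4109). P7BA11 was in the first list, P3BA12 in the second, and both in the third. Both were already chosen for being above 0 in every exposure, so they are part of these counts. P7BA11 is the 1 positive feature of the first list, and P3BA12 is 1 of the 2 in the second. Both are among the 4 in the third. For these lists limma tested the mean of the 4 exposures left out, 1 from each water, against 0. The 4 waters thus stood as replicates, and differences between them counted as error. Limma called 0 features of these lists higher, where 0%, 0.0472% and 0.316% of all features were called higher for numbers 1, 2 and 3. At an unadjusted p under 0.05, 1, 1 and 3 features of the lists passed as higher, where 7.64%, 5.47% and 8.66% of all features did.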

How the data were processed

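The values deposited by the authors are log ratios, 1 for each feature on each array, read here as log2 because no base is stated. Scanning, background correction, normalisation and filtering are not given in the sources used here, and spot brightness was not analysed here. Precision is limited by the number of exposures, 3 for each water. Dye-swap arrays of an exposure correlated between 0.616 and 0.91 over features, so the deposited ratios had already been turned the same way. Arrays with the exposed animals in the same dye form 132 pairs, and 5 of these had a correlation under -0.3 (minimum -0.376). The pairs include arrays of different waters, so a negative correlation alone does not show a turned sign. Whether any exposure was turned was not tested, and the sign of single exposures is not fully certain.

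Both arrays of an exposure were averaged, and a blank on either made the exposure value blank. With limma 3.58.1 (lmFit, eBayes; R 4.3.3), a fit gave 1 mean per site over 12 exposures for the 6504 features with values in at least 2 exposures of every site. The dye half-difference was fitted likewise and tested as the mean over sites. P-values were adjusted by Benjamini-Hochberg over all tested features, with a threshold of 0.05. Tests against 0 leave out the spread of control animals where arrays shared control RNA. The labels call the exposures biological replicates.

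Exposure numbers are shared by the sites. After subtracting site means, exposures of one number were correlated between sites. The correlation was over 0.1 for each of the 3 numbers between tailings and Little Grizzly Creek, portal and Little Grizzly Creek, and portal and upstream. In the other 3 pairs it was not over 0.1 for every number. It was -0.255, 0.577 and 0.262 between upstream and tailings for numbers 1, 2 and 3. Between upstream and Little Grizzly Creek it was -0.0634, 0.594 and 0.642, and between portal and tailings 0.105, 0.0730 and -0.0771. The blocked fit used 6315 features with a value for every number.

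The rule for naming features asked for values above 0 on all 24 arrays, which neither feature met; both are named because there are only 2, after their values were seen. The features and the rule were chosen with earlier results of these data known.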

Additional observations from a re-analysis of the deposited data

How the results depend on the processing

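The number of qualifying features, 2, was 5 when 1 array of a pair was enough, 14 on Cy5 and 20 on Cy3 arrays alone, 6 with a site minimum of 0.05, 0 with 0.2, 0 with all 24 arrays above 0, 13 without the tailings limit, and 1 (another feature) with the second upstream exposure turned. It was 1 to 18 when single exposures or exposure numbers were left out. Quantile normalisation gave 3, and centring or scaling the arrays 2, with both features kept each time. Other normalisations, single dye orientations and the turned exposure changed the input of 42 site means of P3BA12 and P7BA11, of which 38 moved by less than the SD among exposures. The 4 that moved more came from single dye orientations: the portal mean of P3BA12 (0.28 on Cy5 and 0.021 on Cy3 arrays) and the Little Grizzly Creek mean of P7BA11 (0.16 and 0.38).

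Calls against control over all features were 552 in tailings, 264 in Little Grizzly Creek, 0 in portal and 5 in upstream water. With the exposure number as a replicate block they were 838, 658, 1097 and 467, and 1973 features had a dye difference, against 250 without the block. Among features with all 12 values the counts were 141 in Little Grizzly Creek, 170 in portal and 18 in upstream water, and 413 for the dye difference. In upstream water quantile normalisation gave 324 and turning the second exposure 0. Without single exposures the ranges were 277 to 679, 104 to 289, 0 to 484 and 0 to 123, and 12 to 1216 for the dye difference, which moved by more than 1.5 times whichever exposure was left out. The half-difference of P3BA12 kept its sign in 16 alternatives (adjusted p 0.0222 to 0.175) and passed in 2, the block and without portal exposure 2. That of P7BA11 kept its sign and passed in 0 of 16 (0.109 to 0.427). The cause of these changes was not tested.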

Other observations

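The identifiers P3BA12 and P7BA11 share the letters BA and carry neighbouring last numbers. Of the 156 features whose identifiers start with P and hold these letters, 90 had all 12 exposure values. Of these 90, 2 were above 0 in all 12 exposures, P3BA12 and P7BA11, and 18 (0.492%) of all 3661 were. The letters were taken from these 2 features, and the rule required both to be above 0 throughout. At least 2 of the 90 were thus fixed in advance, and nothing is read from this count. The meaning of these letters and numbers is not stated in the labels. After this was seen, the 26 identifiers that start with P and end in BA11 or BA12 were looked up. The 15 with all 12 exposure values had a median mean log ratio over the 4 sites of 0.086, from -0.066 to 0.48, and 10 of them were positive. Over the 90 such features with the letters BA and any last number the median was 0.016, with 53 positive, and over all 3661 features it was -0.00047, with 1828 positive. The 2 features described are part of the 15, so these values are no separate evidence.

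Blanks were uneven between the kinds of identifier. Of 2688 features whose identifier starts with A, 736 (27.4%) had all 12 exposure values, and 1 of these was above 0 in every exposure. Of 4992 whose identifier starts with P, 2925 (58.6%) had all 12 values, and 17 were above 0 in every exposure. A rule that needs all 12 values therefore drew mainly on identifiers that start with P.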
